A study of Homo sapiens with 7 samples.

Results

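A group of 8 ion channel genes was followed in N/TERT2G cells, human keratinocytes immortalized with telomerase, after knockdown of the transcriptional co-activators YAP1 and TAZ (gene symbol WWTR1). They were the epithelial sodium channel subunits SCNN1A and SCNN1B, the transient receptor potential (TRP) channels TRPV2, TRPV3, TRPM4, TRPM7 and TRPC1, and the mechanosensitive channel PIEZO1. They were taken by gene symbol from a table of 16686 genes, and 7 of the 8 had a row. TRPV2 had none and was not analysed here. The genes were chosen by name with their siYT and siCON values already known, so their differences between the groups are given as a description and carry no test.

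The 7 libraries were made from RNA of cells lysed 48 h after siRNA transfection at 8 pmol per cm2. The siYT group, libraries A to D, received pooled siRNAs against YAP1 and TAZ together (n = 4), and the siCON group, libraries A to C, a non-targeting control siRNA (n = 3). All 7 came from the same immortalized line grown in EpiLife medium with keratinocyte supplement, with no other allele or agent named. Values are a normalized signal per gene, close to CPM, in which the authors set the library factors with TMM, the trimmed mean of M values. Library totals of this signal were 941281 to 955106 in siCON and 866098 to 884761 in siYT, without overlap. YAP1 and WWTR1 differed by -1.83 ± 0.06 and -2.59 ± 0.09 on the log2 scale (SE, 3 siCON and 4 siYT libraries). All 9 keratinocyte markers looked at were measured, and they went both ways, with 3 higher, 1 lower and 5 not past an adjusted p under 0.05 and a fold of at least 1.5. KRT5 overlapped between the groups (mean signal of 20952 in siCON and 22323 in siYT), KRT14 was lower without overlap (9327 and 8187, not past the thresholds), TP63, ITGA6 and COL17A1 rose (log2 differences of 0.61, 0.63 and 0.60) and ITGB4 fell by 0.84 (adjusted p of 2.03e-08, 3.53e-07, 1.3e-06 and 3.31e-07 by limma).

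The epithelial sodium channel (ENaC) is built from alpha, beta and gamma subunits and lets sodium enter epithelial cells across the apical membrane. TRP channels are cation channels that respond to warmth, ligands, intracellular calcium or lipid signals, and TRPV3 is the family member best known from keratinocytes, where it is gated by warmth and where activating mutations cause a thickening skin disease. PIEZO1 is a large channel that opens when the membrane is stretched, and it passes calcium and other cations.

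SCNN1B and TRPV3 were far higher in siYT than in siCON, PIEZO1 was moderately higher, SCNN1A and TRPM4 were somewhat lower, and TRPM7 and TRPC1 overlapped between the groups. Past the thresholds used for all genes (adjusted p under 0.05 and a fold of at least 1.5) were 3 of the 7 measured genes, all 3 of them higher in siYT and 0 lower, while 4 did not pass. Over all 13072 genes tested, 27.4% passed, 14.1% higher and 13.2% lower in siYT. The siCON and siYT libraries did not overlap for 5 of the 7 genes, against 68.7% of all genes tested. Since the genes were chosen with these values in view, nothing is read from those counts.

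The promoters of the 3 genes that were higher in siYT are shown here because their values set the channel genes apart and because YAP1 and TAZ act on DNA through TEAD factors. The 250 bases before the start site, from the RefSeq sequences of build GRCh38.p14, run 5′ to 3′ on the strand of the gene. These start sites are those of RefSeq, and the hg19 gene positions given below can begin elsewhere. Capitals mark matches, on either strand, to the letters GGAATG (the core of a TEAD site), TGANTCA (AP-1), GGGTGTG (KLF) and GGGCGG (GC box).
SCNN1B (chr16:23302052-23302301, + strand): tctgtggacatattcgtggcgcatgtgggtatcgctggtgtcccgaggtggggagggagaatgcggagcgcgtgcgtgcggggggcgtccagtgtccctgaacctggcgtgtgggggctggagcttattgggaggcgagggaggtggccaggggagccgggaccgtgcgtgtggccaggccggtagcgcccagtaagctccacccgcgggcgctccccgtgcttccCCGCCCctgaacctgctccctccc
TRPV3 (chr17:3557813-3558062, - strand): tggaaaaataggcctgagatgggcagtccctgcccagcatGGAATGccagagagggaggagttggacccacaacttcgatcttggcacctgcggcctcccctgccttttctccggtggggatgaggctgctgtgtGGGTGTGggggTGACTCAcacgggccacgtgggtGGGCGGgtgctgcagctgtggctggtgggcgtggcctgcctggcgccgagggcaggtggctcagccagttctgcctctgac
PIEZO1 (chr16:88785221-88785470, - strand): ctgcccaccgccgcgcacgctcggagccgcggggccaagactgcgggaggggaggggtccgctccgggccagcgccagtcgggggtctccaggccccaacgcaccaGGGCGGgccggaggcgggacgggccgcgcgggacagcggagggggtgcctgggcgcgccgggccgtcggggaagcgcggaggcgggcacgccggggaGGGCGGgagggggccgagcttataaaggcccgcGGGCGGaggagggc
In the TRPV3 window each of the 4 motifs occurred, beginning 210 bases (TEAD), 115 bases (KLF), 104 bases (AP-1) and 81 bases (GC box) before the start. The SCNN1B window held only a GC box on the opposite strand, beginning 24 bases before the start, and the PIEZO1 window held GC boxes at 144, 47 and 14 bases. Of 35116 RefSeq promoter windows of the same length, 11.9% held the TEAD letters, 6.57% the AP-1 letters, 6.63% the KLF letters and 42.6% the GC box. The other members with an entry, TRPM4, TRPM7 and TRPC1, held no TEAD or AP-1 letters. The KLF letters also occurred in a TRPC1 window, 188 bases before the start, and GC boxes in windows of TRPM4, TRPM7 and TRPC1. A further TRPC1 window held none of the motifs. SCNN1A had no entry. These are matches of letters and say nothing of binding.

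**Figure D1:**
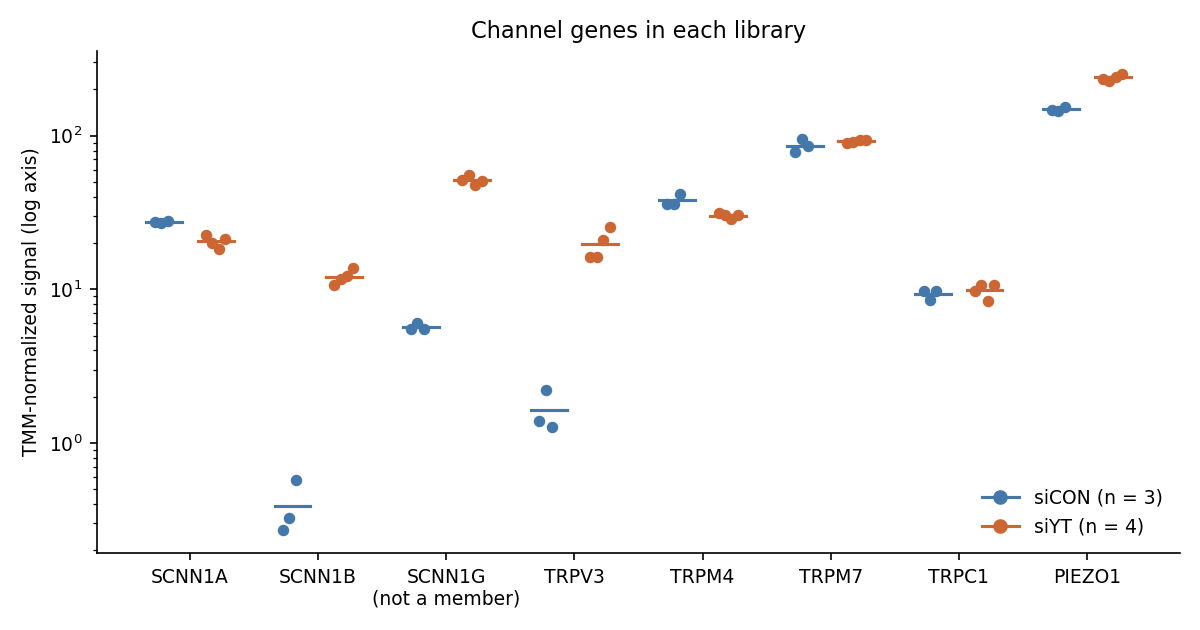
Normalized signal (log axis) of the 7 measured channel genes and of SCNN1G in each of the 3 siCON and 4 siYT libraries, with a bar at each group mean. SCNN1B, SCNN1G and TRPV3 lie far apart between the groups, while TRPM7 and TRPC1 overlap.

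SCNN1B encodes the beta subunit of ENaC. Its signal was 0.270, 0.323 and 0.573 in siCON A to C and 10.7, 11.6, 12.2 and 13.7 in siYT A to D. Every siYT library was above every siCON library, siYT D was the highest and siYT A the lowest of the treated ones. The group means were 0.389 ± 0.162 (SD, n = 3) and 12.0 ± 1.26 (SD, n = 4), a ratio of 31.0. After adding 0.5 and taking log2, which shrinks the change of a gene this low, the difference was 3.83 ± 0.14 (SE). That was rank 3 from the highest among all genes tested. SCNN1B passed the filter, a mean signal of at least 1 over all libraries, only through its siYT values. The rank is therefore a description within the filtered genes. The siCON values rest on little signal, at about 6, 7 and 13 times the lowest value of their library, against 257 to 374 times in siYT, so the size of the ratio is less certain than its direction. With a pseudocount of 2 the log2 difference was 2.55, and with 0.1 it was 4.68. The gene lies on chromosome 16 at 23289552 to 23392620 of hg19, on the + strand. This start was not matched to the RefSeq start used for the promoter window, so that window may lie inside these bounds.

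SCNN1A encodes the alpha subunit, which ENaC needs to conduct. Its signal was 27.5, 27.0 and 27.8 in siCON and 22.5, 20.1, 18.4 and 21.3 in siYT. All siYT libraries were below all siCON libraries, with siYT C the lowest. The log2 difference was -0.41 ± 0.07 (SE), a ratio of group means of 0.749, which did not reach the fold threshold. The gene lies on chromosome 12 at 6456009 to 6486896 (- strand) and shares 2686 bases with LTBR, a receptor gene on the opposite strand. LTBR had a signal of 155 to 188 in siCON and 179 to 194 in siYT, and the sources do not say if the counting used strand, so the part of LTBR reads in SCNN1A was not tested.

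The gamma subunit gene SCNN1G is not among the 8 members but completes the channel, and it rose. Its signal was 5.49, 5.99 and 5.55 in siCON and 51.5, 55.1, 47.9 and 50.4 in siYT, with no overlap. The log2 difference was 3.06 ± 0.07 (SE) with an adjusted p of 2.89e-14 by limma, and the ratio of means was 9.02. The delta subunit gene SCNN1D stayed low, at 1.06 to 1.67 in siCON and 0.941 to 2.02 in siYT (log2 difference 0.24 ± 0.20, adjusted p = 0.297 by limma). The acid-sensing relative ASIC1 was at 1.52 to 1.85 and 1.75 to 2.99, with overlap, a log2 difference of 0.45 ± 0.16 and an adjusted p of 0.0192 by limma, below the fold threshold, which it passed without siYT D (0.59). Of the 9 ENaC and acid-sensing genes listed, 6 had a row and ASIC3 was under the filter on low values. Of the 5 tested 2 passed as higher, 0 as lower and 3 did not pass. Shares over all genes tested were 14.1% higher and 13.2% lower.

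Levels of different genes were compared as signal per kb of transcript. In siCON, alpha was at 8.58 to 8.82 per kb, gamma at 1.58 to 1.72 and beta at 0.106 to 0.224. In siYT, alpha was at 5.84 to 7.14, gamma at 13.8 to 15.9 and beta at 4.17 to 5.34. The order of the subunit transcripts thus went from alpha, gamma, beta in each siCON library to gamma, alpha, beta in each siYT library. Gamma over alpha was 0.181 to 0.201 in siCON and 2.08 to 2.49 in siYT, and beta over alpha was 0.0121 to 0.0254 and 0.583 to 0.817. The summed level of the subunit transcripts was 10.4 to 10.6 per kb in siCON and 24.4 to 26.8 per kb in siYT. As alpha and beta were chosen on this contrast, the ratios are a description.

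**Figure D2:**
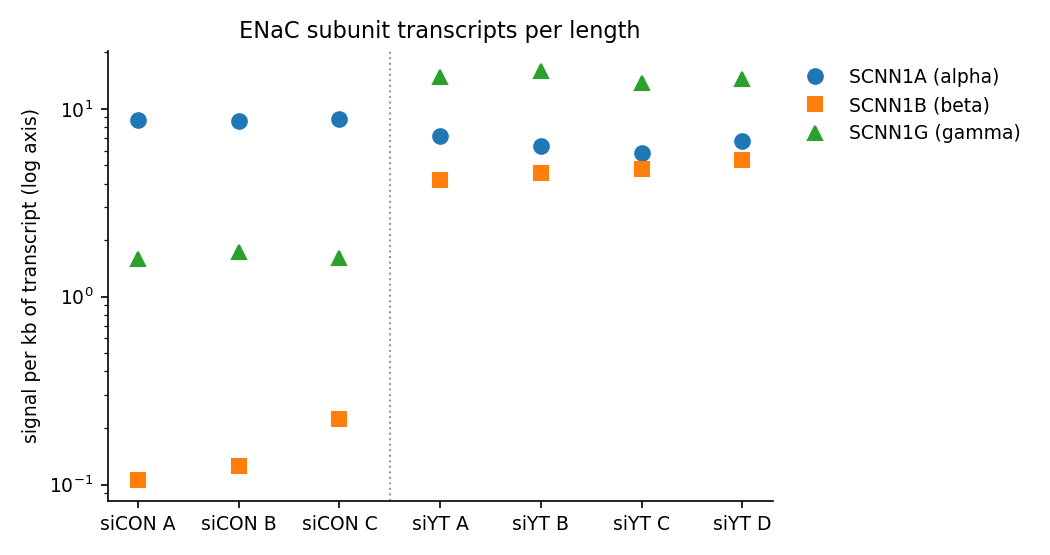
Signal per kb of transcript (log axis) of the alpha, beta and gamma ENaC subunit genes in each library, with siCON left and siYT right of the dotted line. Alpha leads in siCON at 8.58 to 8.82 per kb, and gamma leads in siYT at 13.8 to 15.9 per kb.

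SCNN1B and SCNN1G are neighbours on chromosome 16, on the same strand with 61.3 kb between them. The other tested genes around them had smaller log2 differences. USP31, on the far side of SCNN1G, had a log2 difference of 0.44 ± 0.06 and COG7, next after SCNN1B, one of 0.19 ± 0.07, both under the fold threshold (adjusted p of 8.2e-06 and 0.0212 by limma). GGA2, 82.2 kb from SCNN1B, rose by 0.61 ± 0.05 (adjusted p = 2.92e-08 by limma), while EARS2, UBFD1 and NDUFAB1 were at -0.48, -0.27 and -0.44, not past the thresholds. Around TRPV3, SHPK and CTNS had log2 differences of 0.24 and 0.56 and TAX1BP3 one of 0.11, all not past the thresholds, ITGAE fell by 0.79 ± 0.11 (adjusted p = 8.66e-06 by limma), and the adjacent TRPV1 was under the filter at 0.367 to 1.45 in siCON and 0.135 to 0.601 in siYT.

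**Figure D3:**
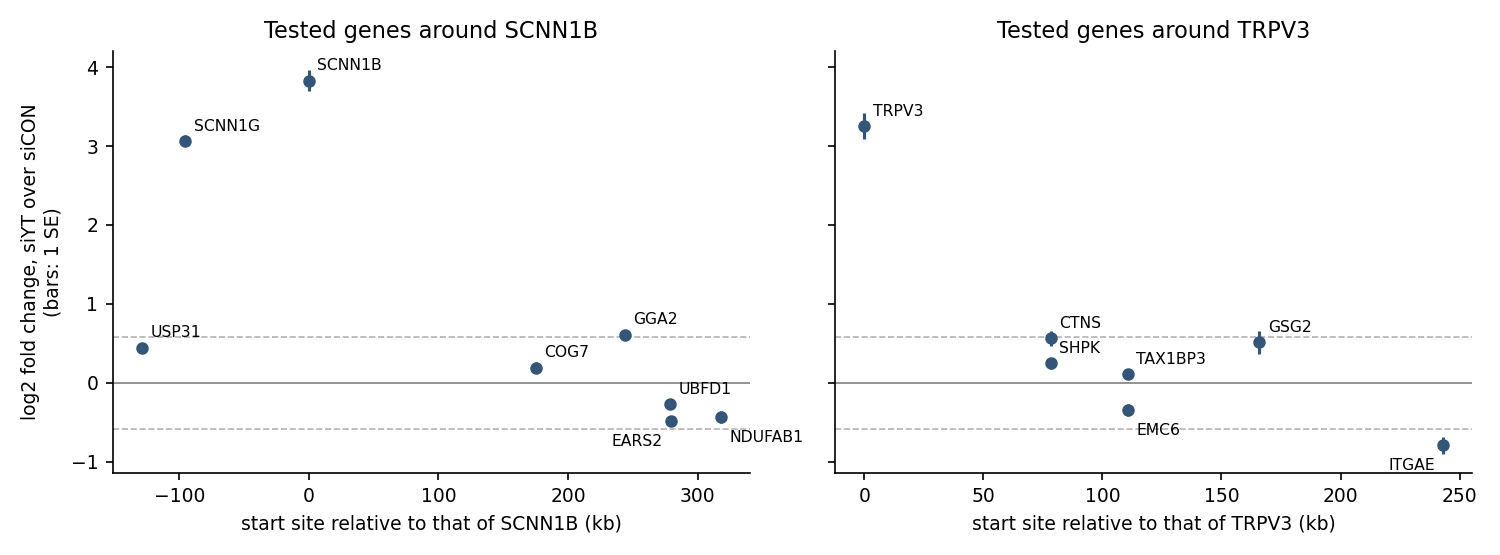
Log2 difference of siYT against siCON (points, with bars of 1 SE) for tested genes within 200 kb of SCNN1B and TRPV3, by the distance of their start site in kb along the chromosome. Dashed lines mark a fold of 1.5, and SCNN1B, SCNN1G and TRPV3 stand at 3.83, 3.06 and 3.25 while the other genes lie between -0.79 and 0.61.

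Most of the known ENaC regulators tested did not pass the thresholds, while the kinase genes WNK1 and STK39, the protease gene ST14 and the receptor gene NR3C1 rose. Of 23 listed, 21 had a row and 20 were tested, of which 4 passed as higher, 0 as lower and 16 did not pass. Among all genes tested 27.4% passed, 14.1% higher and 13.2% lower, and nothing is read from the count. The median log2 difference was 0.10 against 0.00 over all genes tested. WNK1, a kinase that senses chloride and controls sodium transport, was at 220, 249 and 241 in siCON and 484, 488, 459 and 517 in siYT (log2 difference 1.04 ± 0.06, adjusted p = 2.74e-10 by limma). STK39, the kinase SPAK that WNK kinases activate, rose by 0.98 ± 0.05 (adjusted p = 1.34e-10 by limma), from a mean of 93.1 to 184. OXSR1, the paralogue of STK39 that WNK kinases also activate, was at 124 to 134 and 125 to 137, with overlap and a log2 difference of 0.01 ± 0.05 (adjusted p = 0.863 by limma), and WNK4 was under the filter. ST14, the membrane protease matriptase, rose by 0.996 ± 0.053 (adjusted p = 2.13e-10 by limma). NR3C1, the glucocorticoid receptor, rose by 0.62 ± 0.07 (adjusted p = 5.52e-07 by limma), but was under the fold threshold without siCON A (0.58) or siCON C (0.57) and with a trend on transcript length removed (0.45).

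Other regulators differed less. NEDD4L, the ubiquitin ligase that removes ENaC from the membrane, was at 87.1 to 93.5 in siCON and 85.6 to 89.9 in siYT (log2 difference -0.03 ± 0.05), and PRSS8, the protease prostasin that cleaves gamma, was at 110 to 125 and 114 to 117 (-0.03 ± 0.05). SGK1, a kinase that restrains NEDD4L, was at 53.1 to 58.8 and 33.4 to 47.6, without overlap and with a log2 difference of -0.44 ± 0.09, under the fold threshold. The scaffold gene NHERF2 was at -0.58 ± 0.09, just short of it, and passed as lower without siCON B (-0.70), siYT C (-0.60) or siYT D (-0.61). FURIN, TSC22D3, SPINT1 and USP2 were higher without overlap, at 0.48, 0.53, 0.37 and 0.49, under the fold threshold. NEDD4 and COMMD1 were lower without overlap, at -0.34 and -0.44, also under it. FURIN (0.59) and TSC22D3 (0.65) passed as higher when libraries were set to equal totals, and USP2 without siCON C (0.62).

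Beta subunit transcripts of the sodium pump, which moves sodium back out of the cell, rose. Of 14 genes of the pump and of sodium transport listed, 10 had a row and 9 were tested. Of these 4 were higher, 2 lower and 3 not past the thresholds. Over all genes tested 14.1% were higher and 13.2% lower. The median log2 difference of the list was 0.38 against 0.00 over all genes. SLC24A3 was under the filter, at 1.23 to 1.49 in siCON and 0.110 to 0.125 in siYT, without overlap. The beta subunits ATP1B1 and ATP1B3 rose by 0.91 ± 0.05 and 0.98 ± 0.05 (adjusted p of 2.12e-10 and 1.55e-10 by limma). FXYD5, a small membrane protein that binds the pump, fell by 0.77 ± 0.07 (adjusted p = 4.33e-08 by limma), from a mean of 128 to 74.9, but was under the fold threshold at -0.43 with the length trend removed. The sodium bicarbonate carrier SLC4A7 rose by 0.63, though not past the fold threshold without siCON A (0.54) or with the length trend removed (0.45), and the sodium calcium exchanger SLC8A1, low at 1.19 to 1.98 in siCON, fell by 0.86 ± 0.18 to 0.439 to 0.817 (adjusted p of 5.58e-07 and 0.000664 by limma). With a pseudocount of 2 SLC8A1 was at -0.44, under the fold threshold.

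TRPV3 was the TRP gene with the highest log2 difference among the 8 tested. Its signal was 1.40, 2.21 and 1.28 in siCON and 16.3, 16.4, 21.0 and 25.4 in siYT. The groups did not overlap, siYT D was the highest and siYT A the lowest treated library, and the treated libraries spread more (coefficient of variation 22.0%) than those of any other measured member. The means were 1.63 ± 0.51 (SD, n = 3) and 19.8 ± 4.35 (SD, n = 4), a ratio of 12.1, and the log2 difference was 3.25 ± 0.16 (SE), the 8th highest of all genes tested. TRPV3 lies on chromosome 17 at 3413796 to 3461289 (- strand), and the annotation has SPATA22 on the same strand sharing 3351 bases at its end.

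The related warmth and osmotic channel TRPV4 rose from 1.71, 1.48 and 1.85 to 3.44, 3.02, 3.73 and 3.80 (0.88 ± 0.13, adjusted p = 1.97e-05 by limma), and was under the fold threshold at a pseudocount of 2 (0.58). Per kb, TRPV3 was at 0.376 to 0.817 times the level of TRPV4 in siCON and at 2.58 to 3.64 times in siYT. The irritant receptor TRPA1 was under the filter, at 0.220 to 0.277 in siCON and 0.667 to 0.856 in siYT.

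TRPM4 encodes a channel that calcium opens and that passes only monovalent cations. Its signal was 36.1, 35.7 and 41.8 in siCON and 31.2, 30.4, 28.7 and 30.6 in siYT. The siYT libraries were all below the siCON libraries, by a margin smaller than the range of siCON, and the log2 difference of -0.32 ± 0.07 (SE) did not reach the fold threshold. The gene lies on chromosome 19 at 49660998 to 49715093 (+ strand).

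TRPM7, a magnesium, zinc and calcium permeable channel fused to a kinase, was at 77.8, 94.6 and 85.3 in siCON and 89.8, 90.3, 93.4 and 93.7 in siYT. The siYT values lay inside the siCON range, with siCON B the highest of all 7. The log2 difference was 0.10 ± 0.06 (SE) with a 95% interval of -0.03 to 0.23, and it turned to -0.07 with the length trend removed. TRPM7 lies on chromosome 15 at 50844670 to 50979012 (- strand).

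TRPC1, a subunit that joins other TRPC channels, was at 9.73, 8.48 and 9.79 in siCON and 9.79, 10.7, 8.40 and 10.6 in siYT. The lowest of the 7 libraries was siYT C and the groups overlapped. The log2 difference was 0.08 ± 0.10 (SE), with a 95% interval of -0.13 to 0.29, and it turned to -0.04 with the length trend removed. TRPC1 lies on chromosome 3 at 142442916 to 142526730 (+ strand).

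Of 27 TRP genes listed, 14 had a row and 6 of them were under the filter. Of the 8 tested 3 passed as higher, 0 as lower and 5 did not pass, against 14.1% higher and 13.2% lower over all genes tested. Of the tested ones 4 are members, chosen with their values known, and of the 4 others 2 passed as higher and 0 as lower. The lysosomal channel gene MCOLN3 rose from 4.19, 5.76 and 5.91 to 12.0, 11.8, 13.8 and 13.9 (1.22 ± 0.11, adjusted p = 1.35e-07 by limma). PKD2 and MCOLN1, a cilium and a lysosomal channel, were just short of the fold threshold at 0.57 and 0.55. Both passed it without siCON C (0.62 and 0.66) or siYT A (0.61 and 0.59), which made the count of higher TRP genes 5. MCOLN2 was under the filter, at 1.15 to 1.49 in siCON and 0.166 to 0.658 in siYT.

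**Figure D4:**
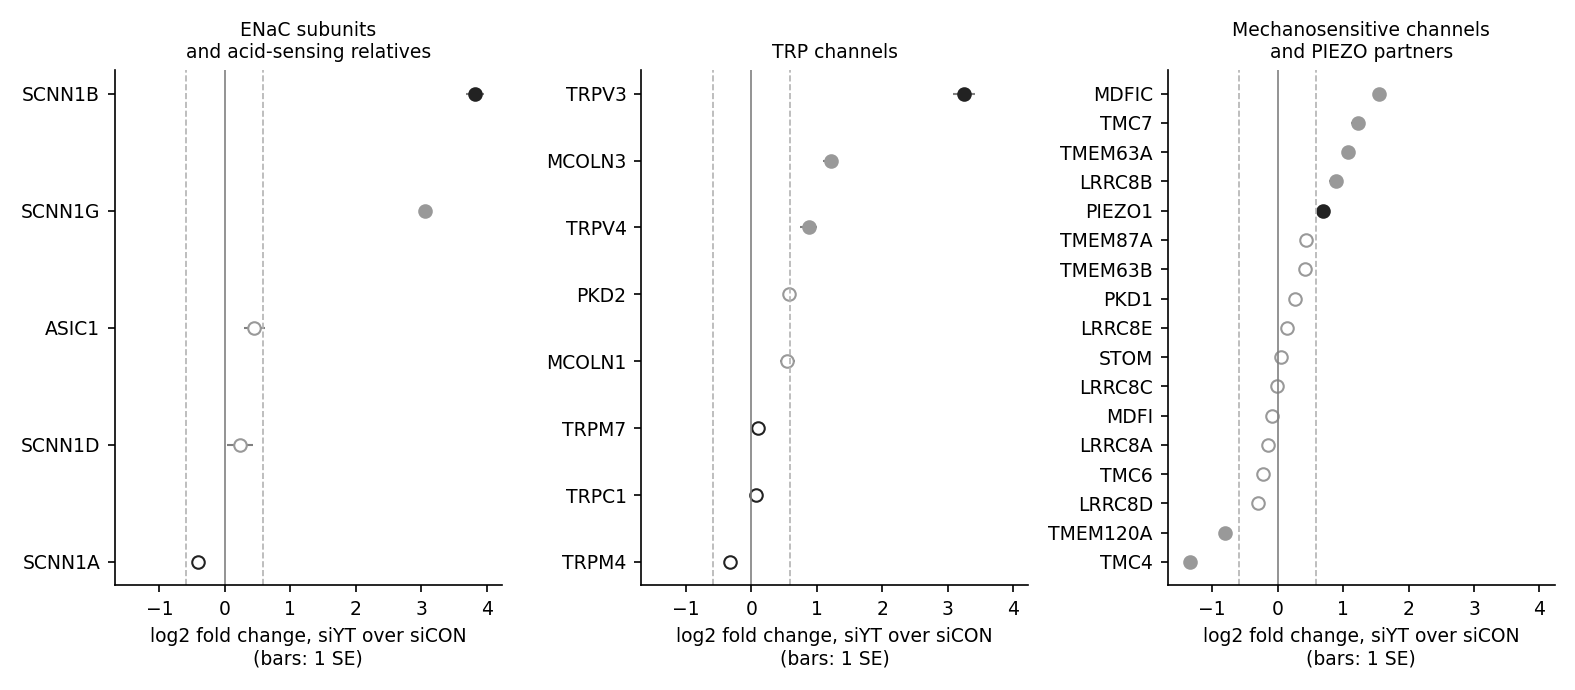
Log2 difference of siYT against siCON with bars of 1 SE for every tested gene of the ENaC, TRP and mechanosensitive lists, with members in black, other genes in grey, and filled points for genes past the thresholds (dashed lines at a fold of 1.5). SCNN1B, SCNN1G and TRPV3 lie above 3 while the other tested genes of the lists lie between -1.33 and 1.55.

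PIEZO1 had the highest level per kb of the measured members. Its signal was at 147, 144 and 154 in siCON and 235, 227, 242 and 254 in siYT. Every siYT library was above every siCON library, and the spread within each group was small (coefficients of variation of 3.48% and 4.63%). The means were 148 ± 5.16 (SD, n = 3) and 240 ± 11.1 (SD, n = 4), a ratio of 1.62, and the log2 difference was 0.69 ± 0.05 (SE). It stayed between 0.52 and 0.80 under every alternative and was under the fold threshold at 0.52 with the length trend removed. PIEZO1 lies on chromosome 16 at 88781751 to 88851619 (- strand) and shares 54 bases with CTU2, at 6.20 to 10.2 in these libraries, and more with several long non-coding RNAs that have no row here.

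Mechanosensitive channels and partners of PIEZO1 went both ways. Of 29 listed, 19 had a row and 17 were tested, with 5 higher, 2 lower and 10 not past the thresholds. Among all genes tested 14.1% were higher and 13.2% lower. The median log2 difference was 0.14 against 0.00 over all genes. MDFIC, a protein that binds PIEZO channels, rose from 12.5, 12.2 and 12.6 to 33.9, 38.0, 36.9 and 40.9 (1.55 ± 0.07, adjusted p = 3.56e-11 by limma). Its relative MDFI was at 81.9 to 95.6 and 79.4 to 88.9, with overlap and a log2 difference of -0.08 ± 0.06. TMC7 and TMC4, of the transmembrane channel-like family, went apart. TMC7 rose by 1.22 ± 0.11 (adjusted p = 5.45e-08 by limma) and TMC4 fell by 1.33 ± 0.08 (adjusted p = 9.97e-10 by limma), from a mean of 24.5 to 9.44.

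TMEM63A, a stretch-activated channel, rose by 1.07 ± 0.08 (adjusted p = 1.24e-08 by limma), and LRRC8B, a subunit of the volume-regulated anion channel, by 0.89 ± 0.10 (adjusted p = 8.7e-07 by limma). The essential subunit of that channel, LRRC8A, was at 111 to 125 and 96.8 to 114, with overlap and a log2 difference of -0.15 ± 0.06. TMEM120A fell by 0.81 ± 0.07 (adjusted p = 2.66e-08 by limma), from 27.3 to 30.0 in siCON to 15.6 to 16.5 in siYT.

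Per kb of transcript, PIEZO1 was the most abundant of the measured members in siCON at 18.3 ± 0.638 (SD, n = 3), followed by TRPM4 (9.33 ± 0.846), SCNN1A (8.71 ± 0.121) and TRPM7 (8.27 ± 0.809), whose library values overlapped one another. TRPC1 followed at 2.05 ± 0.161, and TRPV3 (0.275 ± 0.0859) and SCNN1B (0.152 ± 0.0632) were lowest and overlapped. In siYT the order was PIEZO1 (29.6 ± 1.37, SD, n = 4), TRPM7 (8.84 ± 0.197), TRPM4 (7.45 ± 0.255), SCNN1A (6.53 ± 0.554), SCNN1B (4.70 ± 0.493), TRPV3 (3.33 ± 0.735) and TRPC1 (2.17 ± 0.235). There, TRPM4 overlapped SCNN1A and SCNN1B overlapped TRPV3, and the other neighbours in the order did not overlap. SCNN1B and TRPV3 had thus passed TRPC1.

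Several of these channels pass calcium, and genes that store and read calcium were looked at beside them. Of 28 genes of calcium entry, stores and pumps listed, 24 were tested, with 7 higher, 0 lower and 17 not past the thresholds. Among all genes tested 27.4% passed, 14.1% higher and 13.2% lower, and nothing is read from the count. The median log2 difference was 0.08 against 0.00 over all genes. TMCO1, a channel that vents overfilled endoplasmic reticulum, rose from 12.7, 13.5 and 14.4 to 50.9, 53.3, 41.9 and 45.7 (1.78 ± 0.08, adjusted p = 3.32e-11 by limma). ORAI3 and STIM2, a plasma membrane channel and a store sensor of store-operated entry, rose by 1.20 ± 0.06 and 1.13 ± 0.07 (adjusted p of 2.05e-10 and 1.28e-09 by limma). Their paralogues ORAI1 (-0.37 ± 0.08) and STIM1 (0.13 ± 0.06) did not pass. ITPR3, an IP3 receptor of the stores, rose by 0.75 ± 0.06 (adjusted p = 4.39e-08 by limma), but by 0.57 with the length trend removed. Its paralogues ITPR1 (-0.16 ± 0.16) and ITPR2 (0.22 ± 0.06) did not pass. ATP2A2, the store pump mutated in Darier disease, was at 339 to 385 in siCON and 238 to 249 in siYT. The log2 difference was -0.58 ± 0.05, just short of the fold threshold. ATP2A2 passed as lower without siCON A (-0.63) or siYT C (-0.59). It also did so with the length trend removed (-0.76) and with libraries scaled by their upper quartile (-0.60). ATP2C2 was under the filter, at 0.968 to 1.54 in siCON and 0.0830 to 0.292 in siYT, without overlap. Among the higher genes, ATP2A3 and PLCD1 were under the fold threshold without siCON B (0.56 and 0.57), and PLCB1 with a pseudocount of 2 (0.54). ATP2A3 was also under it without siYT A (0.56), with a pseudocount of 2 (0.38) and with the length trend removed (0.48).

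Calcium sensors and the calcineurin and NFAT branch had 17 tested genes of 20 listed, with 4 higher, 1 lower and 12 not past the thresholds. All genes tested had 27.4% past the thresholds, and nothing is read from the count. The median log2 difference of the list was 0.10 against 0.00 over all genes. The calmodulin-like genes CALML5, known from differentiating epidermis, and CALML3 had the largest log2 differences of the list. CALML5 was at 1.26, 1.43 and 1.19 in siCON and 6.68, 8.39, 6.57 and 9.72 in siYT (2.20 ± 0.14, adjusted p = 1.39e-09 by limma), and CALML3 rose by 2.03 ± 0.07 (adjusted p = 9.7e-13 by limma). The calmodulin gene CALM2 fell by 0.68 ± 0.06 (adjusted p = 5.68e-08 by limma), with a log2 difference of -0.56 when libraries were set to equal totals and -0.42 with the length trend removed, both under the fold threshold. NFATC4 and NFATC3, transcription factors that calcineurin releases to the nucleus, rose by 1.21 ± 0.09 and 0.76 ± 0.06 (adjusted p of 5.23e-09 and 8.28e-09 by limma), while the calcineurin subunits PPP3CA and PPP3CB were at -0.02 ± 0.05 and -0.04 ± 0.05.

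TRPM7 also carries magnesium, and of 17 magnesium transport genes listed 16 were tested, with 4 higher, 0 lower and 12 not past the thresholds. All genes tested had 27.4% past the thresholds, 14.1% higher and 13.2% lower. The median log2 difference of the list was 0.06 against 0.00 over all genes. NIPAL4, ichthyin, mutated in a form of congenital ichthyosis, rose from 51.4, 53.7 and 54.8 to 110, 110, 111 and 123 (1.08 ± 0.05, adjusted p = 1.07e-10 by limma). CNNM2 and CNNM3, membrane proteins of magnesium handling, rose by 0.94 ± 0.09 and 0.82 ± 0.11 (adjusted p of 1.45e-07 and 8.92e-06 by limma). NIPAL2 rose by 0.59 ± 0.07 (adjusted p = 9.95e-07 by limma), on the edge of the fold threshold, and was under it without siCON A (0.51) or siYT D (0.56). MAGT1, a magnesium transporter, was at 83.9 to 85.6 and 61.3 to 66.7, a log2 difference of -0.40 ± 0.05, not past the fold threshold.

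Over these lists, 109 tested genes were not members, and of these 27.5% were higher and 4.59% lower past the thresholds, with a median log2 difference of 0.13. Over all genes tested these shares were 14.1% and 13.2%. In the lists with 0 genes lower, the number lower at an unadjusted p under 0.05 by limma and the same fold was also 0. This adds little, as 9419 of the 13072 genes tested had such a p. With no filter on low values, SLC24A3 (-1.58), ATP2C2 (-1.40) and MCOLN2 (-0.90) of these lists passed as lower, and TRPA1 (0.79) as higher. The lists were put together with results of these data known and were not set against other genes in a test.

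Markers of other cell types were looked at because bulk RNA cannot tell fewer cells of a type from less RNA per cell. All libraries came from the same keratinocyte line, and no other cell type was named as present. Of 7 fibroblast markers, 5 had a row, summing to 227 to 256 in siCON and 186 to 193 in siYT, most of it DCN, which fell from a mean of 139 to 86.5 (-0.68, adjusted p = 1.34e-08 by limma), and COL1A1, which overlapped at 86.9 to 108 and 95.1 to 106. Of the lower ones, COL1A2 rose from a mean of 1.02 to 1.97 (log2 difference 0.69, adjusted p = 0.000567 by limma) and COL3A1 fell from 2.03 to 0.333 (-1.60, adjusted p = 2.76e-07 by limma), so that of the 4 tested 1 was higher, 2 were lower and COL1A1 did not pass. PDGFRB was under the filter, and PDGFRA and LUM had no row. The summed melanocyte markers were at 1.98 to 3.23, the Merkel and sensory neuron markers at 0.545 to 2.07, and of the immune markers only CD68 had a row, at 45.5 to 51.4 and 47.2 to 58.0. The part of these in the channel values was not tested.

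**Figure D5:**
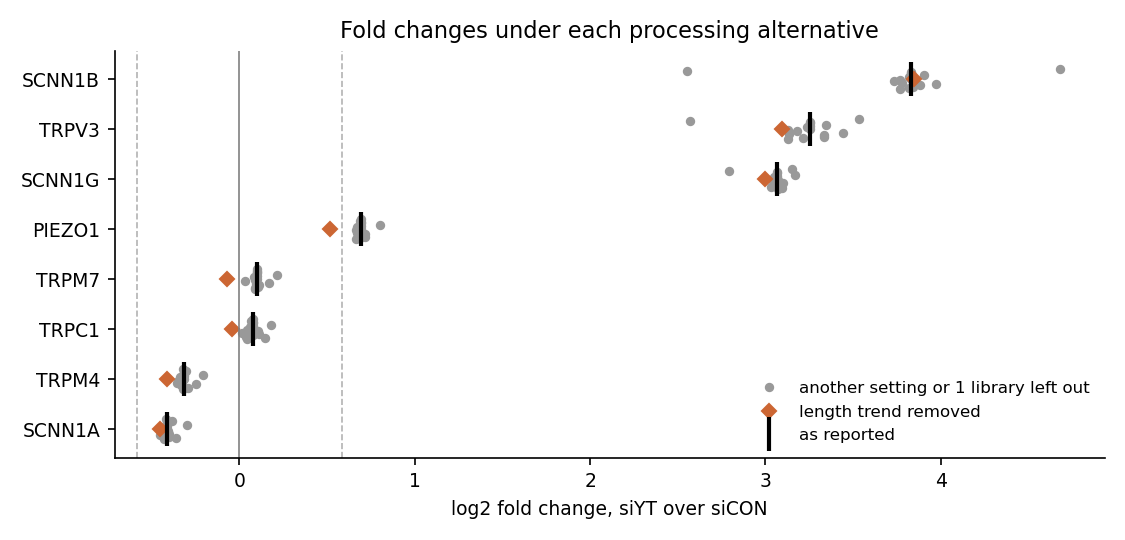
Log2 difference of siYT against siCON for the 7 measured members and SCNN1G as reported (black bars), under another setting or with 1 library left out (grey points) and with the length trend removed (orange diamonds). SCNN1B ranges from 2.55 to 4.68, TRPV3 from 2.57 to 3.54 and PIEZO1 from 0.52 to 0.80, and only TRPM7 and TRPC1 change sign.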

How the data were processed

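Polyadenylated RNA was made into TruSeq mRNA libraries. The authors trimmed reads, aligned them to hg19 with STAR 2.6.1, counted genes in Partek, removed genes with few reads and scaled by TMM. Their processing notes name cutadapt 1.18 and Partek 8.0.19.0819, while the methods name another trimmer and Partek release. The deposited values are a normalized signal near CPM with no 0. The lowest value of each library, 0.0366 to 0.0461, was shared by 140 to 216 genes. In genes with a mean under 2, 82.3% of values were whole multiples of it to within 0.05. Reads could not be recovered from so few, and count models were left out. The total divided by the lowest value was 20700000 to 23900000, a rough number of reads if that value stands for about 1 read. The sources used here do not state whether counting used strand. A second deposited table, with p-values, ratios and fold changes from the authors' test between the groups, was not used.

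The table had 18478 rows for 16686 symbols, and 1792 repeated rows were dropped. The 13072 genes whose signal averaged 1 or more were tested as log2(value + 0.5) with limma 3.58.1 in R 4.3.3, with empirical Bayes, a mean-variance trend, no covariate and Benjamini-Hochberg adjustment over all of them. Thresholds were an adjusted p under 0.05 and a fold of at least 1.5. The fit was tested on simulated data. Levels per kb used the length of 1 transcript per gene from GENCODE on GRCh37. Promoters came from RefSeq (GRCh38.p14), which held 6 of the 8 members. Symbols of 2 listed genes, NHERF2 and SARAF, were matched through synonyms.

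Replicates carry only a letter, and control and treated wells were plated together, so p-values measure the spread between these libraries, which may be technical. The siYT libraries A and B were closer to each other (median scaled squared difference 1.50) than other replicates (2.73 to 3.87) and were both kept. These values are multiples of the counting expectation only if the lowest value of each library stands for 1 read, which was not tested.

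The members and gene lists were chosen with earlier results of these data known. Named genes were YAP1, WWTR1, the members, up to 4 genes past the thresholds with the largest change from each list (mean of at least 5, no overlap), and other listed genes where 5 or fewer fell in that class. NEDD4L, PRSS8, SGK1, OXSR1, NHERF2, MDFI, LRRC8A, ORAI1, STIM1, ATP2A2, PPP3CA, PPP3CB and MAGT1, and genes near SCNN1B and TRPV3 or overlapping members, were named outside that rule after their values were seen. So were ITPR1, ITPR2, ATP2A3, PLCB1, PLCD1, TRPA1, MCOLN2, FURIN, TSC22D3, SPINT1, USP2, NEDD4 and COMMD1. A gene that the rule named is not reported here. Alternatives were other pseudocounts, filters and scalings, no trend, a block, leaving out each library and removing a length trend.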

Additional observations from a re-analysis of the deposited data

Results flagged for a closer look

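In the siYT group of 4 libraries, 1 library stood apart from the other 3 for 4 of the 35 named genes, with a gap to its nearest neighbour that took more of the group's range than the 95% critical value of Dixon's test. Chance does this in about 1 in 20 groups. The gap was 0.880 of the range for ST14 and 0.860 for TMEM63A, both lowest in siYT B. It was 0.910 for ITPR3 and 0.933 for NIPAL4, both highest in siYT D. In each of the 4 genes the library apart still lay above every siCON library.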

How the results depend on the processing

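Over 17 alternatives and 35 named genes, 581 of 595 log2 differences kept their direction and their side of the thresholds, 12 fell short of the thresholds and 2 changed sign. The sign changes were TRPM7 (-0.0729) and TRPC1 (-0.0410), both with the length trend removed, a setting applied to the 87.3% of tested genes with a known length. SCNN1A stayed between -0.45 and -0.30, TRPM4 between -0.42 and -0.21 and SCNN1G between 2.79 and 3.17. The count of all genes past the thresholds, 3579, was 2800 to 4001 over the alternatives. Setting libraries to equal totals raised all differences by a median of 0.11 and the share of calls that were upward from 51.6% to 64.6%, and 5 TRP genes then passed as higher against 3.

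The letters A to C are shared by both groups, and the correlations of the deviations of same-letter libraries were 0.156, 0.025 and 0.183, so the letters were not taken to pair the samples. Not every library correlated best with its own letter. With a replicate block, in which siYT D stood alone, 3528 genes passed. That fit put NIPAL2 under the fold threshold (0.56) and NHERF2 (-0.61) and ASIC1 (0.59) past it, and the other listed channel and transport genes kept their side. Leaving out 1 library at a time gave 3483 to 3755 genes.
Precision was limited for genes at a few multiples of the lowest value, SCNN1B in siCON above all.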
